A study of Mus musculus with 45 samples.

Results

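The Slc22 family encodes membrane carriers that move small organic ions, and 9 of its genes were followed here across every mouse of the series: Slc22a2, Slc22a6, Slc22a7, Slc22a8, Slc22a12, Slc22a13, Slc22a18, Slc22a19 and Slc22a30. The rule that chose them is a list of names, and they were 9 of the 55401 genes in the count tables. All 9 passed the filter on low counts in both sexes. The count tables held 16 further Slc22 genes, and 14 of these were tested. The libraries were made by translating ribosome affinity purification (TRAP), in which mRNA on ribosomes marked with L10a-EGFP is pulled down with the tag. Kidneys of 45 mice were used, all 7 weeks old. All mice were hemizygous for the L10a-EGFP allele in Rosa26 (R26Rpl10a), for Pax8rtTA and for TetOCre. Cre was switched on with doxycycline from postnatal day 28 to day 42, in cells where the Pax8 promoter is active, chiefly tubule cells, and the tag depends on that Cre. The 8 male and 7 female noncystic mice were Pkd1fl/+ and so kept an intact Pkd1 allele after Cre (their labels call them wild type). The 7 male and 8 female Pkd1KO mice were Pkd1fl/fl. The 9 male and 6 female Pkd1KO+ciliaKO mice were Pkd1fl/fl;Kif3afl/fl and lost both polycystin-1 and cilia in the recombined cells.

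Proximal tubule cells clear drugs, toxins and metabolic waste by taking organic ions up from the blood across the basolateral membrane and releasing them into the urine across the apical membrane. Slc22a2 (OCT2) takes up organic cations on the basolateral side. Slc22a6 (OAT1) and Slc22a8 (OAT3) take up organic anions there, in exchange for dicarboxylates, and Slc22a7 (OAT2) also carries organic anions. Slc22a12 (URAT1) and Slc22a13 (OAT10) are apical exchangers that take urate back from the filtrate, and Slc22a19 (OAT5) is another organic anion transporter of the rodent kidney. Slc22a18 lies in an imprinted region, and Slc22a30 belongs to a rodent expansion of the family. Several of these transporters have long been known to differ between male and female rodents.

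The 3 genotypes of 1 sex and the sexes of 1 genotype were compared with edgeR's quasi-likelihood test on the counts, Benjamini-Hochberg adjusted over all genes tested, and an adjusted p of at most 0.05 counted as passed. Levels are given in CPM (counts scaled by library size and TMM factor), which allow a gene to be compared between mice, and in the deposited TPM (transcripts scaled for length and library) where genes are compared with each other. The total count of a mouse lay between 80874556 and 132958186 fragments.

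Some libraries need naming before the results. Noncystic male 3, Pkd1KO male 4 and Pkd1KO+ciliaKO males 6 and 8 had the lowest median correlation of log2 CPM with the other mice of their group among all males (0.96 to 0.974). Among females, Kif3a conflicted with 2 labels: the library labelled noncystic female 5 held 6.72 CPM of Kif3a, close to the 6.58 CPM of the lowest Pkd1KO+ciliaKO female, and the library labelled Pkd1KO+ciliaKO female 6 held 20.5 CPM, where the other noncystic females held up to 25.4. In males the label held for Kif3a, which was higher in Pkd1KO than in Pkd1KO+ciliaKO mice by 2.08 on the log2 scale (standard error 0.09), without overlap of the groups (21.3 to 29.6 against 4.83 to 7.54 CPM). Pkd1 passed in no comparison (-0.45 in Pkd1KO against noncystic males, adjusted p = 0.0991, edgeR). According to the paper, Cre removes only some exons of Pkd1, while the counts cover the whole gene, so this does not test the Pkd1 label. All results were also computed without the 4 males and 2 females named above. The male labels held for the Y chromosome: the summed level of 4 Y genes was 120.2 to 203 CPM in males and at most 0.110 in females. The tissue label held for the proximal tubule markers Lrp2, Cubn and Aqp1, each of which was at 306 CPM or more in every mouse. Of the 8 such markers listed, Slc5a2 fell lowest, to 2.23 CPM in Pkd1KO+ciliaKO female 1, and Slc5a12 fell to 116 CPM. The podocyte marker Nphs1 stayed at or under 4.62 CPM. In these bulk libraries, fewer cells of a type and less RNA per cell cannot be told apart.

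On chromosome 19, neighbouring members of the family differed between the sexes in opposite directions, and promoters of some of these genes are shown. Whether the promoters have a part in these differences was not tested. The promoters are RefSeq sequences of GRCm38.p6, from 250 bases before to 50 bases after the start of the gene in RefSeq. All are read 5′ to 3′ along the gene, and 8 of the 9 genes had an entry (Slc22a7 had none), but the window of Slc22a8 lies inside the gene as GENCODE annotates it and is not used. Capitals mark matches on either strand to GTTAAT (the core of an HNF1 site), CAAAGT (a short core bound by HNF4) and TTCNNNGAA (bound by STAT5). The first 2 sequences belong to genes with more mRNA in males:
Slc22a30: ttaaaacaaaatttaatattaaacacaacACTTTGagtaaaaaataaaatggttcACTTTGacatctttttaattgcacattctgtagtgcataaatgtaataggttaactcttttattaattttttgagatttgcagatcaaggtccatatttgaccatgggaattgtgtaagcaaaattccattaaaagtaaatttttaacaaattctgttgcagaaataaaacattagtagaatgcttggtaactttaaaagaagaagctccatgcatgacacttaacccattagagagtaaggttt
Slc22a28: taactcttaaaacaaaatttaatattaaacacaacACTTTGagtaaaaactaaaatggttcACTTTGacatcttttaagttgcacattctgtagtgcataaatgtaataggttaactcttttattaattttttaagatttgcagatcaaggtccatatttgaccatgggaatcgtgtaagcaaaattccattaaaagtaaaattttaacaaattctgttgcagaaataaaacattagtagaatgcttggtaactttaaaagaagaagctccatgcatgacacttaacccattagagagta
The next 2 belong to genes of the same stretch with more mRNA in females:
Slc22a19: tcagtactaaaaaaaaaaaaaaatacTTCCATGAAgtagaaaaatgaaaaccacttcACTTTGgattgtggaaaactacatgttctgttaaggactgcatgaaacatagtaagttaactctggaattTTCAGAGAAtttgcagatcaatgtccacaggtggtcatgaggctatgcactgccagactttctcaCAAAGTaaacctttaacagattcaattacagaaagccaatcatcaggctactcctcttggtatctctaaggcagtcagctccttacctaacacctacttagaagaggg
Slc22a29: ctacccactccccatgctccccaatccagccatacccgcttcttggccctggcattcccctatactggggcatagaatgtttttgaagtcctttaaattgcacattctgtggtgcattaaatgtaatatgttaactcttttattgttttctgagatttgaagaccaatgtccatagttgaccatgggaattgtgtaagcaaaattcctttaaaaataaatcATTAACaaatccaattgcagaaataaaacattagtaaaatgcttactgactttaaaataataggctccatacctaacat
The last belongs to Slc22a6, higher in males and the neighbour of Slc22a8, which was higher in females:
Slc22a6: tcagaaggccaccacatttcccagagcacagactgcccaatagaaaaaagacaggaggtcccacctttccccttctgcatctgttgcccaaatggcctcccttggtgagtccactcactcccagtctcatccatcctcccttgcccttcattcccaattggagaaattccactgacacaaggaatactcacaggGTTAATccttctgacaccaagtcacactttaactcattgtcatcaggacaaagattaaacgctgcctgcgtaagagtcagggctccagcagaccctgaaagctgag
The windows are chr19:8405056-8405355 (Slc22a30), chr19:8131933-8132232 (Slc22a28), chr19:7711261-7711560 (Slc22a19) and chr19:8218851-8219150 (Slc22a29), all on the minus strand. That of Slc22a6 (chr19:8617746-8618045) is on the plus strand.

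In a global alignment, the Slc22a30 and Slc22a28 promoters were identical in 288 of 306 aligned columns (94.1%). The Slc22a29 promoter matched that of Slc22a30 in 68% of columns and the Slc22a19 promoter matched it in 63.7%. CAAAGT was present at 2 places each in Slc22a30, Slc22a28 and Slc22a19, while 14.4% of all 32851 promoters of that length hold at least 1 match. TTCNNNGAA occurred at 2 places in Slc22a19 and in none of the other 4 promoters shown, against 8.3% of all promoters. Of the genes of this stretch not shown, Slc22a26, which passed in no comparison of the sexes, held TTCNNNGAA at 1 place. The promoter of Slc22a27, higher in females, matched none of the motifs. GTTAAT matched in Slc22a6, 56 bases before the start, and in Slc22a29, 29 bases before it (7.1% of all promoters). These are matches of letters and not measured sites.

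The levels of the 9 genes were first ordered within the noncystic mice by TPM. In males Slc22a12 was highest, with a median of 1008 TPM, and ranked 95th among 15991 genes. It was followed by Slc22a6 (417), Slc22a18 (361), Slc22a2 (281), Slc22a7 (268), Slc22a13 (128), Slc22a8 (120), Slc22a30 (90.2) and Slc22a19 (49.1). The ranges of neighbours in this order overlapped throughout. In females Slc22a12 again came first at 346 TPM, but Slc22a6 came only at the seventh place (131) and Slc22a30 came last (2.62), while Slc22a8 stood above both (199). The gap between Slc22a19, at 62.7 TPM in its lowest noncystic female, and Slc22a30, at 5.09 TPM in its highest, was the only one in the female order without overlap. Slc22a30 also varied most over the 45 mice, with an SD of 2.71 on the log2 CPM scale, and Slc22a13 least (SD 0.42).

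**Figure D1:**
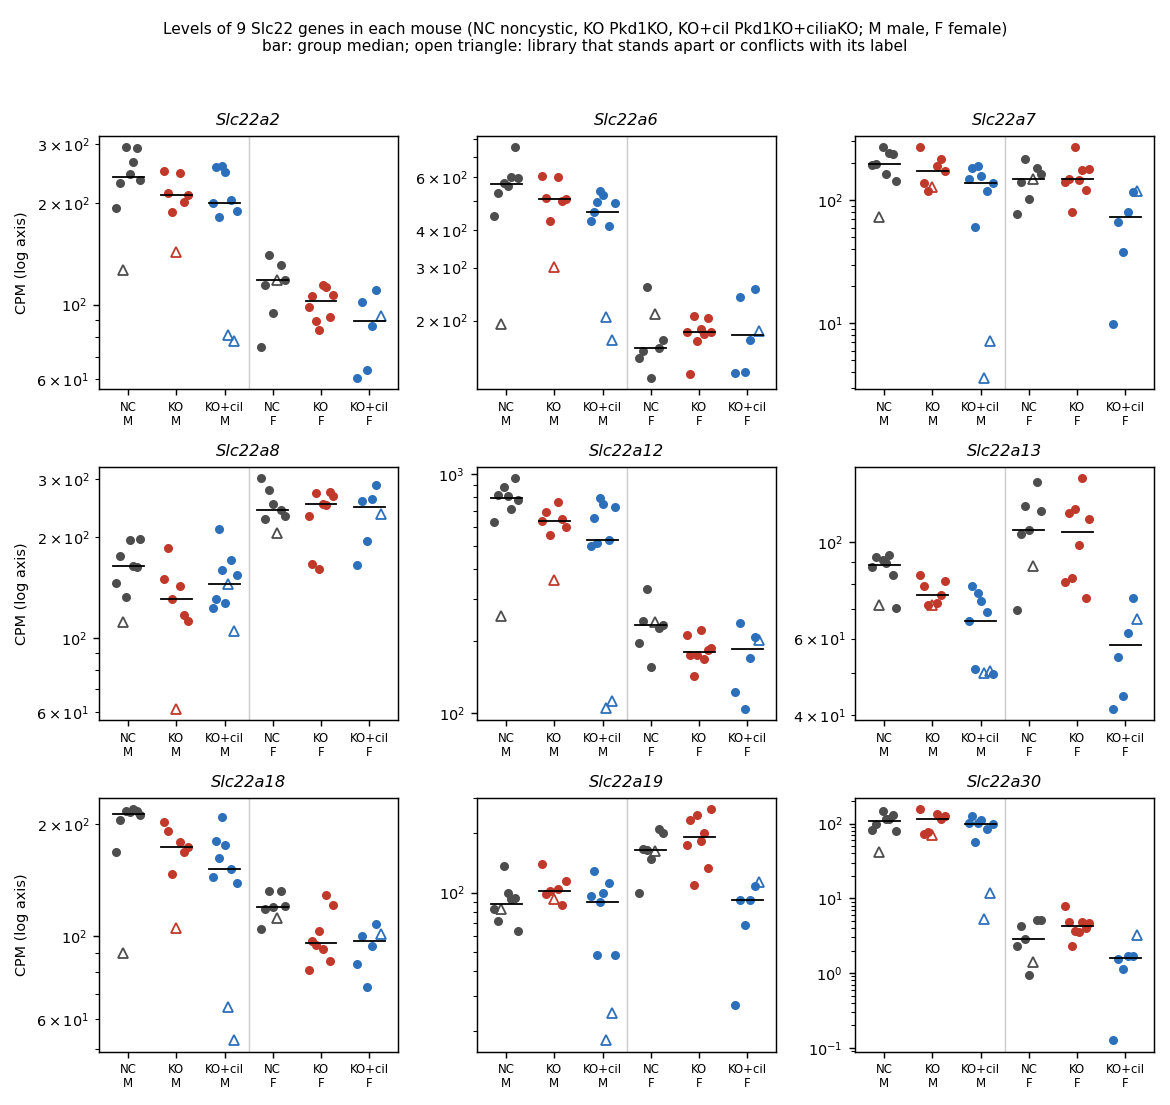
CPM of each of the 9 Slc22 genes in all 45 mice, on a log axis with its own range in each panel; points are mice, bars are group medians, and open triangles mark the 4 males that stand apart and the 2 females whose Kif3a conflicts with the label. Slc22a30 separates the sexes within each genotype, though Pkd1KO+ciliaKO male 6 (5.3 CPM) lies below Pkd1KO female 1 (7.94 CPM), and the open triangles of the males lie at the bottom of their groups for Slc22a2, Slc22a6, Slc22a12 and Slc22a18.

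The widest difference between the sexes was that of Slc22a30. Noncystic males had 41.9 to 146 CPM (median 108) and noncystic females 0.951 to 5.17 (median 2.83). Pkd1KO males had 70.3 to 156 (median 117) against 2.27 to 7.94 (median 4.33) in females, and Pkd1KO+ciliaKO males had 5.3 to 125 (median 97.8) against 0.127 to 3.19 (median 1.61). No male overlapped a female of its genotype. The log2 fold change of males over females was 5.02 in noncystic (standard error 0.37), 4.58 in Pkd1KO (0.26) and 5.62 in Pkd1KO+ciliaKO mice (0.74), each past the threshold in edgeR's test. The lowest female, Pkd1KO+ciliaKO female 1, held 13 fragments of Slc22a30.

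The basolateral pair Slc22a6 and Slc22a8 split by sex. Slc22a6 spanned 195 to 752 CPM in noncystic males (median 567) and 129 to 259 in noncystic females (median 163). Its 7 upper noncystic males lay above all 7 females, and only noncystic male 3 fell among them. The log2 difference was 1.59 (standard error 0.22) in noncystic, 1.44 (0.13) in Pkd1KO and 1.13 (0.24) in Pkd1KO+ciliaKO mice. Slc22a8 went the other way, with 111 to 198 CPM in noncystic males (median 164) and 207 to 301 in noncystic females (median 242), without overlap. Its log2 difference was -0.62 (0.12) in noncystic, -0.87 (0.19) in Pkd1KO and -0.67 (0.14) in Pkd1KO+ciliaKO mice. All 6 of these differences passed. The genes lie on the same strand of chromosome 19, 6.2 kb apart.

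The ratio of Slc22a6 to Slc22a8 within a mouse gives this contrast without any scaling between mice. In TPM it was 1.72 to 4.54 in noncystic males (median 2.97), 2.7 to 4.84 in Pkd1KO males (median 4.12) and 1.39 to 4.03 in Pkd1KO+ciliaKO males (median 3.13). In females it was 0.489 to 0.999 (median 0.686), 0.677 to 1.04 (median 0.741) and 0.650 to 0.911 (median 0.786) in the same order of genotypes. Every one of the 24 males lay above all 21 females, including the 4 males that stand apart.

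**Figure D2:**
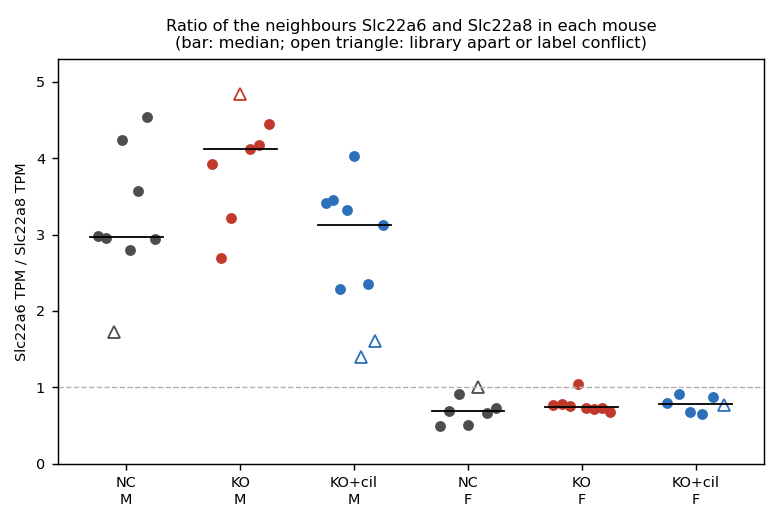
Ratio of Slc22a6 to Slc22a8 in TPM in each of the 45 mice, by group; points are mice, bars are medians, open triangles are the libraries that stand apart or conflict with their label, and the dashed line marks equal levels. Males lie between 1.39 and 4.84 and females between 0.489 and 1.04.

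Slc22a12 and Slc22a2 were also higher in males. Slc22a12 spanned 256 to 962 CPM in noncystic males (median 795) and 157 to 333 in noncystic females (median 234), and 7 of 8 males lay above all females. Its log2 difference was 1.66 (standard error 0.22) in noncystic, 1.72 (0.14) in Pkd1KO and 1.56 (0.4) in Pkd1KO+ciliaKO mice, and each passed. Part of its exons, 682 of 2263 bases, overlaps Nrxn2 on the opposite strand, and whether strand was used in the counting is not given in the sources used here. Nrxn2 itself held at most 1.37 CPM in any mouse. Slc22a2 spanned 127 to 294 CPM in noncystic males (median 240) and 74.8 to 140 in noncystic females (median 118), with log2 differences of 1.07 (0.16), 1.05 (0.11) and 1.12 (0.26) in the 3 genotypes, and each passed.

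Slc22a18 was higher in males of 2 genotypes. It spanned 90.5 to 219 CPM in noncystic males (median 213) and 105 to 132 in noncystic females (median 120). The males lay above all females except noncystic male 3, which lay below them. The log2 difference was 0.69 (standard error 0.15) in noncystic and 0.72 (0.13) in Pkd1KO mice. In Pkd1KO+ciliaKO mice it was 0.59 (0.24) and missed the threshold (adjusted p = 0.109, edgeR), and without the libraries that stand apart or conflict it was 0.83 and passed (adjusted p = 8.6e-05, edgeR).

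Slc22a19 was higher in females of the same 2 genotypes. Noncystic females had 99.3 to 209 CPM (median 165) and noncystic males 64.2 to 136 (median 87.5), and 6 of 7 females lay above all males. The log2 difference of males over females was -0.85 (standard error 0.15) in noncystic and -0.87 (0.17) in Pkd1KO mice, both past the threshold. In Pkd1KO+ciliaKO mice the groups overlapped widely (18 to 129 CPM in males, 27.2 to 113 in females) and the difference was -0.18 (0.39, adjusted p = 0.791, edgeR). Slc22a13 passed in Pkd1KO mice, with a log2 difference of -0.43 (0.12). In noncystic mice it was -0.31 (0.12), just outside the threshold (adjusted p = 0.0525, edgeR), and it passed without the libraries that stand apart or conflict (-0.33, adjusted p = 0.0419, edgeR). In Pkd1KO+ciliaKO mice its value had the opposite sign and did not pass (0.13, standard error 0.15, adjusted p = 0.604, edgeR). Slc22a7 passed in no genotype, with log2 differences of 0.39 (0.24), 0.15 (0.22) and 0.63 (0.68).

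In counts, 7 of the 9 genes passed between the sexes in noncystic mice (5 higher and 2 lower in males), where 27.5% of all 15828 genes tested passed. In Pkd1KO mice 8 passed (5 higher, 3 lower), against 27.2% of all genes. In Pkd1KO+ciliaKO mice 5 passed (4 higher, 1 lower), against 14.6%. The median log2 difference of the 9 genes was 0.69, 0.72 and 0.63 in the 3 genotypes, and that of all genes was -0.01, 0.01 and -0.01. Without the libraries that stand apart or conflict, 8, 8 and 6 of the 9 genes passed, against 33%, 29.6% and 32.3% of all genes in the same fits. Of the 9 genes, 0 passed the interaction of sex with Pkd1KO against noncystic (0.0126% of all genes did), with Pkd1KO against Pkd1KO+ciliaKO (0.221%) and with Pkd1KO+ciliaKO against noncystic (0.0316%). Standard errors reached 0.65 (Slc22a7, Pkd1KO against Pkd1KO+ciliaKO), so this does not show that the genotype effects were equal in the sexes. At an unadjusted p under 0.05, these interactions held 0, 1 and 1 of the 9 genes, against 1279, 1256 and 869 of all 15828, and DESeq2 called none of the 9.

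**Figure D3:**
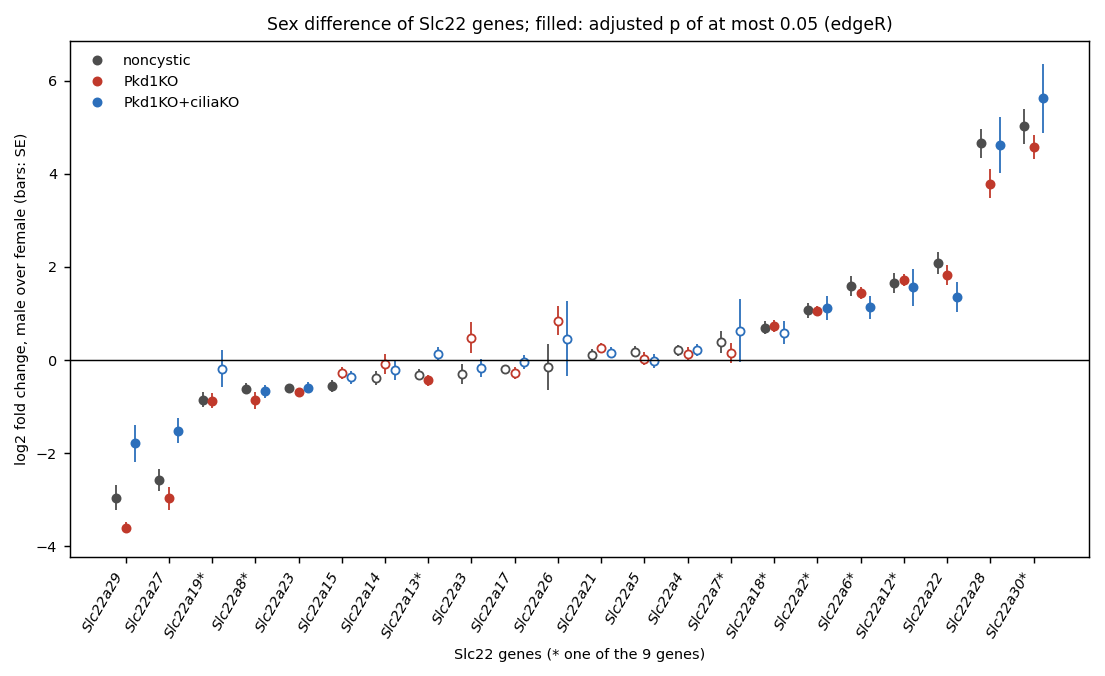
Log2 fold change of males over females with its standard error for Slc22 genes, in noncystic, Pkd1KO and Pkd1KO+ciliaKO mice, ordered by the noncystic value; filled points passed the adjusted p of at most 0.05 and asterisks mark the 9 genes. Slc22a30 and Slc22a28 stand far above the rest and Slc22a29 and Slc22a27 far below.

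The other family members give this split its setting. Slc22a28, which lies between Slc22a27 and Slc22a29 and near Slc22a30, had 33.9 to 109 CPM in noncystic males and 1.27 to 5.24 in noncystic females, a log2 difference of 4.65 (standard error 0.31). Slc22a29 had 1.46 to 6.23 CPM in noncystic males and 15.8 to 26.5 in noncystic females (-2.95, 0.27), and Slc22a27 had 0.173 to 0.559 against 1.16 to 2.55 (-2.57, 0.24). All 3 passed in each genotype. Thus along the 0.73 Mb of chromosome 19 from 7673061 to 8405111 of GRCm38, which holds 6 Slc22 genes on the minus strand, the sex difference changed direction from gene to gene: Slc22a19 and Slc22a27 were higher in females, Slc22a28 in males, Slc22a29 in females and Slc22a30 in males. Slc22a26 passed in no genotype.

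Reads can be split between these relatives. Of the 2598 bases of the longest Slc22a30 transcript, 1159 lie in runs of at least 50 bases that are identical in Slc22a28, 502 in runs shared with Slc22a29 and 87 in runs shared with Slc22a19. How reads with several matches were counted is not given in the sources used here, so the levels of Slc22a30 and Slc22a28 are uncertain relative to each other. The same holds for Slc22a27 and Slc22a29, since 1228 of the 2152 bases of Slc22a27 (57.1%) lie in runs shared with the more abundant Slc22a29, so the direction of Slc22a27 is uncertain too. Over the 45 mice, the pattern of Slc22a28 was the closest to that of Slc22a30: the root mean square difference of mean-centred log2 CPM was 0.51 to Slc22a28 and 0.75 to Ugt2b38, a UDP-glucuronosyltransferase, where the median over all genes was 2.7. By the same measure, Slc22a7 was nearest to Ces2b (0.50) and Prok1 (0.53), with a median of 1.31 over all genes. Slc22a12 was nearest to Ces2c (0.31) and Proc (0.32), with a median of 1.04. Ces2b and Ces2c are carboxylesterases.

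**Figure D4:**
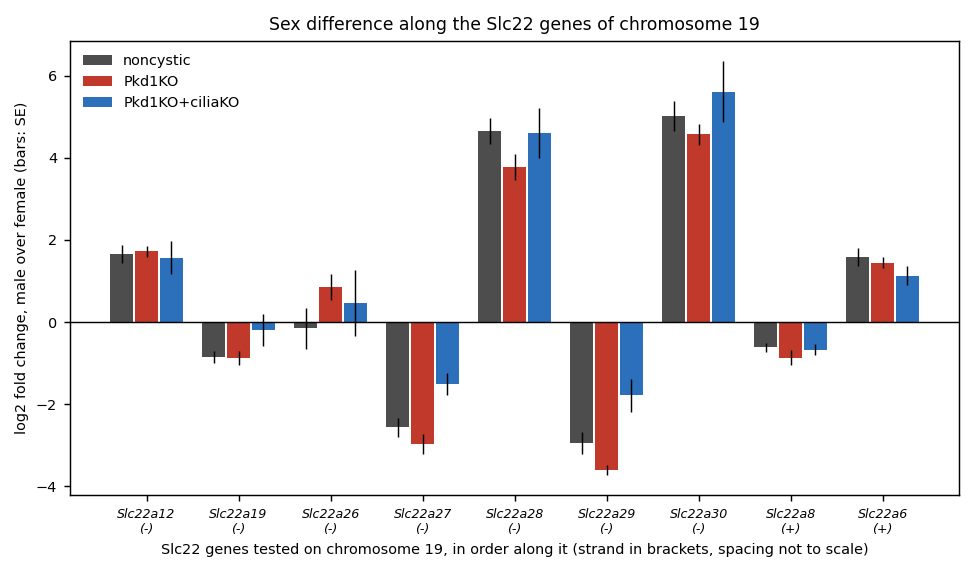
Log2 fold change of males over females (bars, with standard errors) for the 9 Slc22 genes tested on chromosome 19, in their order along it, in noncystic, Pkd1KO and Pkd1KO+ciliaKO mice. The direction changes between neighbours, with Slc22a26 near 0 in noncystic mice, from -0.85 at Slc22a19 and -2.57 at Slc22a27 to 4.65 at Slc22a28, -2.95 at Slc22a29 and 5.02 at Slc22a30 in noncystic mice.

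Of the remaining Slc22 genes, Slc22a22 was higher in males of all 3 genotypes (log2 difference 2.08 in noncystic mice) and Slc22a23 higher in females of all 3 (-0.59). Slc22a15 was lower in noncystic males (-0.56).

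The question of the genotype comparisons is whether loss of polycystin-1, with or without loss of cilia, changes these transporters. Between Pkd1KO and noncystic mice, 0 of the 9 genes passed in males, where 6.3% of all 15991 genes did, and 0 in females, where 3.34% of all 15968 genes did. At an unadjusted p under 0.05 the counts were 1 and 2 of 9, against 3536 and 2612 of all genes tested, and DESeq2 called 0 and 0 of the 9. The median log2 change of the 9 genes was -0.16 in males and -0.05 in females, and that of all genes was -0.01 and -0.00083. Values for single genes ranged from -0.33 (Slc22a8) to 0.22 (Slc22a19) in males, with standard errors of 0.18 and 0.14. In females they ranged from -0.35 (Slc22a12, 0.12) to 0.5 (Slc22a30, 0.32).

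With all mice, Slc22a13, the apical OAT10, was the only one of the 9 genes to pass as lower in Pkd1KO+ciliaKO than in noncystic mice of both sexes. Leaving out the libraries that stand apart or conflict, Slc22a18 shared this. In males Slc22a13 had 70.7 to 93.5 CPM in noncystic (median 88.7), 71.8 to 84 in Pkd1KO (median 75.6) and 49.9 to 79.4 in Pkd1KO+ciliaKO mice (median 66). In females it had 69.7 to 137 (median 107), 74.5 to 140 (median 106) and 41.4 to 74.3 (median 58.1). The 6 libraries labelled Pkd1KO+ciliaKO females all lay below the 8 Pkd1KO females, and 5 of them below all 7 noncystic females. Against noncystic mice the log2 change was -0.43 in males (standard error 0.11, adjusted p = 0.0184, edgeR) and -0.89 in females (0.16, adjusted p = 0.0209, edgeR). In females Slc22a13 was higher in Pkd1KO than in Pkd1KO+ciliaKO mice by 0.83 (0.16, adjusted p = 0.00369, edgeR), whereas in males the value was 0.28 (0.11, adjusted p = 0.159, edgeR). The difference between the sexes did not pass in the interaction test (-0.56, standard error 0.19, adjusted p = 0.341, edgeR). The female call against noncystic mice was lost without Pkd1KO+ciliaKO female 2, 3 or 4 (adjusted p = 0.0573 to 0.0688, edgeR). Without the libraries that conflict it was -0.98 (adjusted p = 0.0072, edgeR).

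Slc22a13 was the only one of the 9 genes to pass between Pkd1KO+ciliaKO and noncystic males, where 8.89% of all genes did. It was also the only one at an unadjusted p under 0.05 (edgeR), against 3887 of all 15991 genes. The median log2 change of the 9 genes was -0.39 in that comparison, and that of all genes was 0.01. No gene of the 9 passed between Pkd1KO and Pkd1KO+ciliaKO males, where 3.77% of all genes did. At an unadjusted p under 0.05 the count was 1 of the 9, against 3153 of all 15991 genes, and DESeq2 called 0 of the 9. Without the males that stand apart, Slc22a18 also passed between Pkd1KO+ciliaKO and noncystic males, at -0.33 (standard error 0.09, adjusted p = 0.0193, edgeR), against -0.44 (0.24) with them. The share of all genes that passed was then 14%.

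In females, 3 of the 9 genes were higher in Pkd1KO than in Pkd1KO+ciliaKO mice, where 11.7% of all genes passed. Beside Slc22a13 these were Slc22a19 and Slc22a30. Slc22a19 had 110 to 263 CPM in Pkd1KO females (median 190) and 27.2 to 113 in Pkd1KO+ciliaKO females (median 91.8), and 7 of 8 Pkd1KO females lay above the whole other group. The log2 difference was 1.19 (standard error 0.27, adjusted p = 0.0102, edgeR). Slc22a30 was low in all females, at 2.27 to 7.94 CPM in Pkd1KO and 0.127 to 3.19 in Pkd1KO+ciliaKO mice, with a log2 difference of 1.5 (0.43, adjusted p = 0.0328, edgeR). That call was lost when any 1 of 8 mice was left out (Pkd1KO females 1, 2, 6 and 8, Pkd1KO+ciliaKO females 2, 3, 4 and 5; adjusted p = 0.0502 to 0.0718, edgeR). Without the library labelled Pkd1KO+ciliaKO female 6 it was 1.83 (adjusted p = 0.0149, edgeR).

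Slc22a7 showed a wide spread in the same groups. Pkd1KO females had 79.6 to 270 CPM (median 148), noncystic females 77.9 to 215 (median 150) and Pkd1KO+ciliaKO females 9.85 to 120 (median 73.3). The log2 difference between Pkd1KO and Pkd1KO+ciliaKO females was 1.12 (standard error 0.4) and did not pass (adjusted p = 0.0813, edgeR). In Pkd1KO+ciliaKO males Slc22a7 spanned 3.6 to 191 CPM, and males 6 and 8 held 3.6 and 7.21 while the other 7 held 60.5 to 191.

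Between Pkd1KO+ciliaKO and noncystic females, Slc22a13 and Slc22a18 passed, both lower, where 2.54% of all genes passed. At an unadjusted p under 0.05 (edgeR) the count was 6 of the 9, against 3413 of all 15968 genes. The median log2 change of the 9 genes was -0.41, and that of all genes was 0.01. Slc22a18 had 72.9 to 108 CPM in Pkd1KO+ciliaKO and 105 to 132 in noncystic females, and 5 of 6 Pkd1KO+ciliaKO females lay below all noncystic females. Its log2 change of -0.35 (standard error 0.08, adjusted p = 0.0412, edgeR) was lost when any 1 of 9 mice was left out (adjusted p = 0.0557 to 0.0964, edgeR). Slc22a19 stood at -0.97 (0.25) and just missed (adjusted p = 0.0556, edgeR). Without the libraries that conflict it passed at -1.08 (adjusted p = 0.0399, edgeR), so that 3 genes were then lower, where 5.8% of all genes passed. Slc22a2, Slc22a6, Slc22a8 and Slc22a12 passed in no genotype comparison, with log2 values between -0.48 and 0.25.

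**Figure D5:**
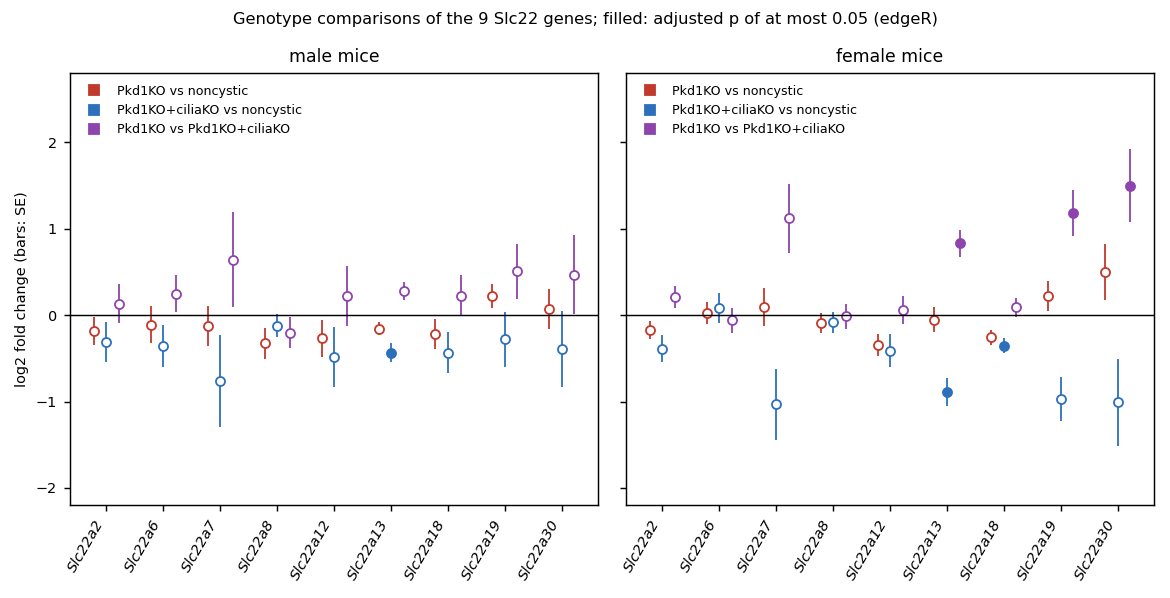
Log2 fold changes with standard errors of the 9 Slc22 genes in the 3 genotype comparisons, for males (left) and females (right); filled points passed the adjusted p of at most 0.05. In males only Slc22a13 passed, at -0.43 in Pkd1KO+ciliaKO against noncystic mice, and in females 5 values passed, from -0.89 to 1.5.

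Proximal tubule markers moved with some of these results. Of 8 markers, 4 were lower in Pkd1KO+ciliaKO than in noncystic males and 1 in females, and none was higher. Of all genes, 8.89% and 2.54% passed there in either direction. Between Pkd1KO and noncystic mice 2 were lower in males and 1 in females. Slc5a2, the apical glucose transporter SGLT2, fell by 4.48 on the log2 scale in males (standard error 0.16). It had 53.3 to 98.3 CPM in noncystic and 2.73 to 5.6 in Pkd1KO+ciliaKO males. Among females it was at 6.92 CPM in the library labelled noncystic female 5 and at 66.4 in that labelled Pkd1KO+ciliaKO female 6. The summed level of the 8 markers was 14276 to 18700 CPM in noncystic males and 12492 to 16564 in Pkd1KO+ciliaKO males. In females it was 13442 to 18033 and 12014 to 15622. The part of this shift in the lower Slc22a13 was not tested.

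Carriers that work beside the Slc22 genes were counted from a list of 20. Between Pkd1KO+ciliaKO and noncystic males 6 were lower and 0 higher, with a median log2 change of -0.36, where 8.89% of all genes passed. Among them were Slc2a9 (GLUT9, a urate transporter, -0.7), Abcb1a (a drug efflux pump, -0.7), Slc5a12 (a lactate transporter, -0.62) and Pdzk1 (an apical scaffold protein, -0.27). In females 2 were lower, Abcb1a (-0.59) and Slc16a9 (-0.57), where 2.54% of all genes passed. Leaving out the libraries that stand apart or conflict gave 10 lower in males and 4 in females, with 0 higher in each. The shares of all genes were then 14% and 5.8%. Between Pkd1KO and noncystic mice Slc2a9 was lower in males (-0.94) and in females (-0.79), where Slc13a3, a dicarboxylate transporter, was lower as well (-0.55). Between Pkd1KO and Pkd1KO+ciliaKO females 5 were higher, Slc16a9 (0.65), Slc17a3 (0.85), Slco3a1 (0.34) and Slco1a6 (1.12) among them, and in males 0 passed. Between the sexes of noncystic mice 11 were higher in males and 3 in females, among them Slc5a8 (1.79), Slco3a1 (2.04) and Slco1a1 (11.43) on the male side and Abcc4 (MRP4, an apical efflux pump, -0.92) on the female side.

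Of 12 regulators listed, Ghr, the growth hormone receptor, was lower in Pkd1KO+ciliaKO than in noncystic females by a log2 value of -0.71 (standard error 0.13), and Hnf4a was lower by -0.35 (0.08). Both were higher in Pkd1KO than in Pkd1KO+ciliaKO females (1 and 0.35). In males, Prlr, the prolactin receptor, was lower in Pkd1KO than in Pkd1KO+ciliaKO mice (-3.07), and without the males that stand apart it was -1.29 and did not pass (adjusted p = 0.198, edgeR). Between the sexes of noncystic mice, Nr1h4 (the bile acid receptor FXR, 1.19) and Esr1 (0.9) were higher in males, and Prlr (-3.52) and Nr1i2 (PXR, -0.62) in females.

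Among the other Slc22 genes, Slc22a15 (log2 change 0.52) and Slc22a21 (0.35) were higher in Pkd1KO+ciliaKO than in noncystic males. Of the 3461 bases of Slc22a21, 1447 (41.8%) lie in runs of at least 50 bases shared with Slc22a5. Slc22a5 is far more abundant (median 181 against 1.95 CPM in noncystic males), so the change of Slc22a21 is uncertain. Slc22a27 (0.99), Slc22a4 (0.52) and Slc22a29 (0.4) were higher in Pkd1KO than in Pkd1KO+ciliaKO females. Slc22a5 (OCTN2), Slc22a21 and Slc22a4 (OCTN1) lie 0.26, 0.35 and 0.38 Mb from the floxed Kif3a gene on chromosome 11. Slc22a5 passed in no genotype comparison, with log2 values from -0.14 to 0.05. Slc22a2 and Slc22a7 lie 11.92 and 21.84 Mb from Pkd1 on chromosome 17.

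The males that stand apart were low in many of the 9 genes, most often in those higher in males but also in those higher in females. Slc22a2, Slc22a6, Slc22a12, Slc22a18 and Slc22a30 were below the range of the other mice of the group in all 4 of them. Slc22a8 was below it in 3, Slc22a7 in 3, Slc22a19 in 2 and Slc22a13 in 1 (Pkd1KO male 4, at 71.80 CPM against 71.81 in the next mouse), and no gene of the 9 was above it in any of the 4. Slc22a12, for example, had 256 CPM in noncystic male 3 against 629 to 962 in the other 7, and 106 and 113 in Pkd1KO+ciliaKO males 6 and 8 against 501 to 792. Slc22a30 had 5.3 and 11.8 in the latter mice against 56.5 to 125. Slc22a27, low in males, was above the range in all 4 (0.559 to 0.920 CPM), and Slc22a29 was above it in 3 and below it in Pkd1KO male 4.

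A list of 8 genes with known male bias moved with these values. Its summed level was 697 CPM in noncystic male 3 against 3495 to 5792 in the other noncystic males, and 1813 in Pkd1KO male 4 against 3028 to 5656. It was 300.0 in both Pkd1KO+ciliaKO males 6 and 8 against 2163 to 3662, and 108 to 376 in females. The 4 males were not alike in the female-biased list (6 genes). Its sum was 410 CPM in noncystic male 3 against 275 to 388, and 595 and 517 in Pkd1KO+ciliaKO males 6 and 8 against 264 to 367. In Pkd1KO male 4 it was 184 against 209 to 272. The injury list (7 genes) had 958, 1550, 1428 and 1019 CPM in these 4 males and 468 to 1884 in the other males. The 8 proximal tubule markers summed to 9630 CPM in Pkd1KO male 4 against 13349 to 16346, and to 14276 in noncystic male 3 against 15887 to 18700. Pkd1KO+ciliaKO males 6 and 8 (13577 and 14347) lay within the 12492 to 16564 of their group. The list of 8 markers of podocytes, vessels, stroma and leukocytes had 370, 576, 214 and 351 CPM in them and 105 to 326 in the other males, with every marker above 0. Their part in the low Slc22 levels was not tested.

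The remaining lists were counted in the same way. Of all genes, 27.5%, 27.2% and 14.6% passed between the sexes of noncystic, Pkd1KO and Pkd1KO+ciliaKO mice. In males, 6.3% passed for Pkd1KO against noncystic, 3.77% for Pkd1KO against Pkd1KO+ciliaKO and 8.89% for Pkd1KO+ciliaKO against noncystic mice. In females the shares were 3.34%, 11.7% and 2.54%. All 8 male-biased genes were higher in males of each genotype, and none passed in a genotype comparison. With the libraries that stand apart or conflict left out, 3 were lower in Pkd1KO+ciliaKO than in noncystic males and 1 in females. Of 6 female-biased genes, 5, 5 and 3 were lower in males of the noncystic, Pkd1KO and Pkd1KO+ciliaKO mice. Of 7 injury genes, 2 were higher in Pkd1KO than in noncystic males (1 without those libraries) and 2 in Pkd1KO+ciliaKO than in noncystic males (4 without them). Between the sexes, 5, 1 and 3 were lower in males than in females of the 3 genotypes. Of 8 markers of other tubule segments, 2 were lower in Pkd1KO than in noncystic males (0 without those libraries). Pkd1KO against Pkd1KO+ciliaKO mice had 2 lower in each sex (1 in males and 2 in females without those libraries). Between the sexes, 1, 4 and 2 of these 8 were lower in males of the noncystic, Pkd1KO and Pkd1KO+ciliaKO mice and 0 were higher. Their medians were -0.21, -0.54 and -0.38 on the log2 scale, and without those libraries 3, 4 and 3 were lower and 0 higher. Of the 8 proximal tubule markers, 1, 1 and 0 were higher and 0, 1 and 3 lower in males, with medians of 0.01, -0.15 and -0.22. Leaving those libraries out gave 1, 1 and 1 higher and 0, 0 and 2 lower. The part of these shifts in the sex differences of the Slc22 genes was not tested.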

How the data were processed

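Tagged-ribosome RNA was sequenced after ribosomal RNA depletion. The authors trimmed reads (fastp 0.20.0), aligned them to GRCm38.p6 (STAR 2.7.9) and counted fragments per GENCODE gene (featureCounts 2.0.0). Strand and multimapping options are not given in the sources used here. The deposited tables hold raw counts per mouse and, for protein-coding genes reaching 6 counts in 20% of a sex's mice, TPM computed by the authors for each sex. The counts of those genes were tested with edgeR 4.0.16 (quasi-likelihood, TMM, R 4.3.3) on the groups compared. DESeq2 1.42.0, limma 3.58.1 on log2(TPM + 1), other scaling, a joint fit, a replicate block and left-out libraries were alternatives, and the fits were tested on simulated data. Named genes are the 9 members, other Slc22 genes past the threshold between genotypes or near Kif3a or Pkd1, up to 4 genes of a list with the smallest p, and the 2 genes closest in pattern to each of the 3 most variable members. Other Slc22 genes named for a sex difference were chosen after their values were seen. Members, lists and libraries to leave out were chosen with earlier results of these data known. Replicates are separate mice, and all 149 pairs within groups differed beyond counting error. Some genes of the lists and family are not reported here.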

Additional observations from a re-analysis of the deposited data

Results flagged for a closer look

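In each of 54 sets of values (9 genes in 6 groups), the gap of the highest or lowest mouse to its nearest neighbour was set against the range of the group, a test in which chance marks about 1 in 20 sets. It marked 3. Slc22a12 was at 256 CPM in noncystic male 3, where the other 7 noncystic males held 629 to 962. Slc22a18 was at 90.5 CPM in the same mouse, against 168 to 219 in the others. Slc22a30 was at 7.94 CPM in Pkd1KO female 1, the highest value among all females.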

How the results depend on the processing

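Of 1431 recomputed values of single Slc22 genes, 1391 kept their call and direction or stayed uncalled, 24 lost a call, 16 gained one, 0 called values changed sign and 30 uncalled values did. With DESeq2 the genes called were 1640 (1008 with edgeR) for Pkd1KO against noncystic males, 1234 (603) for Pkd1KO against Pkd1KO+ciliaKO males, 2157 (1422) for Pkd1KO+ciliaKO against noncystic males, 962 (533) for Pkd1KO against noncystic females, 1279 (405) for Pkd1KO+ciliaKO against noncystic females, and 29 (2), 72 (35) and 21 (5) for the interactions. With limma they were 625 for Pkd1KO against noncystic males and 1000 for Pkd1KO+ciliaKO against noncystic females, where 1 of the 9 Slc22 genes passed. A joint fit gave 929 for Pkd1KO against Pkd1KO+ciliaKO males, and in females 4 of the 9 in place of 3, with Slc22a7 (adjusted p = 0.0479, edgeR). In the other fits on these females, those without 1 mouse included, Slc22a7 did not pass. Without the libraries that stand apart or conflict, 2240 genes and 2 of the 9 passed for Pkd1KO+ciliaKO against noncystic males, 926 genes for females, 5111 (2303) between the sexes of Pkd1KO+ciliaKO mice, and 0 for the interaction of sex with Pkd1KO against noncystic. The cause was not tested.

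Replicate numbers are shared by the groups, but in no comparison did every same-numbered pair correlate above 0.1, and at most 3 mice correlated best with their own number. With the replicate block the genes called were 178 for Pkd1KO against Pkd1KO+ciliaKO males, 765 for Pkd1KO+ciliaKO against noncystic males, 298 for Pkd1KO against noncystic females (with 1 of the 9 Slc22 genes, Slc22a18), 625 for Pkd1KO against Pkd1KO+ciliaKO females (with 2 of the 9 in place of 3, Slc22a30 at adjusted p = 0.154, edgeR) and 74 for Pkd1KO+ciliaKO against noncystic females.

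Leaving out 1 mouse gave 742 to 1155, 403 to 630 and 965 to 2359 genes (the highest without noncystic male 3) for Pkd1KO against noncystic, Pkd1KO against Pkd1KO+ciliaKO and Pkd1KO+ciliaKO against noncystic males, with 0 to 0, 0 to 0 and 1 to 1 of the 9 Slc22 genes. In females it gave 349 to 676, 1241 to 2084 and 8 to 746 genes, with 0 to 1, 2 to 3 and 0 to 3 of the 9. The value of 8 came without Pkd1KO+ciliaKO female 2 and that of 746 without noncystic female 5. Single mice were not left out for the comparisons of the sexes.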
